A study of Homo sapiens with 12 samples.

Results

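The transcripts of the 3 RUNX transcription factors, RUNX1, RUNX2 and RUNX3, and of their shared partner CBFB were followed in HCT116 colorectal carcinoma cells. They are 4 of the 58233 genes in the count table and 4 of the 16657 genes that passed the filter on low counts. The set was picked by gene name, and it was picked because the RUNX2 read count was among those that differed most between the cell lines compared here. The differences of these 4 genes between the lines are therefore given as a description, without a test. For other genes, calls between the lines are counted beside the share called over all genes, and nothing is read from those counts. Untreated parental cells were HCT116 Tet-OsTIR1, which carry the plant F-box protein OsTIR1 at both AAVS1 alleles under a tetracycline-inducible promoter. Dox/IAA-treated parental cells received 2 µg/ml doxycycline (Dox) and 500 µM IAA, an auxin, for 48 h. SDS22-degron cells were the same cells with a mAID-mClover tag and a neomycin or hygromycin resistance cassette inserted before the stop codon of PPP1R7, the gene of the PP1 regulator SDS22, and they were also untreated or given Dox/IAA. The genotype label of this line reads HCT116 Tet-OsTIR1 SDS22 WT, and another label of the same samples calls it the SDS22 degron. In this line Dox induces OsTIR1 and IAA lets it direct the tagged SDS22 protein to the proteasome. Single colonies were isolated to make the line, and a difference between the lines cannot be told apart from a difference between 1 clone and its parental population. Each of the 4 groups had 3 libraries from independent experiments, with 12133915 to 14657508 reads counted on genes per library.

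RUNX proteins bind DNA through their Runt domain and switch genes on or off according to the co-factors they recruit. CBFB does not bind DNA itself, but it joins each RUNX protein, strengthens its hold on DNA and protects it from degradation. RUNX1 is best known as a regulator of blood stem cells, RUNX2 as the master regulator of bone-forming osteoblasts, and RUNX3 for its roles in T cells, sensory neurons and the gut epithelium. PPP1R7 itself had group means between 43.7 and 47.9 CPM (read counts scaled to a library of 1e+06 reads), and this transcript level says nothing about SDS22, which the degron removes as a protein. Of 12 markers of colon epithelium, 9 passed the filter on low counts, and their summed level was 2876 to 4410 CPM per library, although CDX1 was at 0 counts in every library and VIL1 and LGALS4 were near 0. Most of that sum was KRT8, KRT19 and KRT18, with means of 1435, 948 and 682 CPM over all libraries. CDX2 and KRT20 had means of 25.7 and 5.3 CPM. The summed level of 9 markers of bone and stroma was 10.3 to 32.1 CPM per library, nearly all of it COL1A1, while COL1A2, IBSP, DCN and LUM were at 0 counts. The 8 blood markers summed to at most 1.14 CPM in any library, and CD3E, CD3D and MS4A1 were at 0 counts.

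RUNX genes are read from a distal and a proximal promoter. RefSeq (GRCh38.p14) lists 5 start sites of these genes in the sequence table used here, and windows of 250 bases before and 50 bases after each start were searched for the RUNX motif, spelled TGTGGT or TGCGGT, on both strands. The distal RUNX2 window held 5 matches, 2 before the start and 3 after it, and the proximal RUNX2 window held 0. The distal RUNX3 window held 2 matches, and the proximal RUNX3 window and the only RUNX1 window held 0. Over 35116 promoter windows of the same length, 19.6% held at least 1 match, 2.32% at least 2, and 4 windows (0.0114%) at least 5. The bases before the starts are shown for the 3 windows that bear on the difference between RUNX2 promoters and on the distal RUNX3 window, which has a stretch in common with distal RUNX2. Capitals mark the motif in either orientation, and each sequence is 5′ to 3′ on the gene's strand.
RUNX2 distal, chr6:45328080-45328329 (+): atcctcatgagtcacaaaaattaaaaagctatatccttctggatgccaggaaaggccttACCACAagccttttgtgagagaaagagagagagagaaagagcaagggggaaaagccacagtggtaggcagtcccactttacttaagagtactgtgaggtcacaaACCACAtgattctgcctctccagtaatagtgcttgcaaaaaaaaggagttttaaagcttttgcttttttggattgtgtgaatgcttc
RUNX2 distal, after the start, chr6:45328346-45328367 (+): ACCACAgaACCACAagTGCGGT
RUNX2 proximal, chr6:45422025-45422274 (+): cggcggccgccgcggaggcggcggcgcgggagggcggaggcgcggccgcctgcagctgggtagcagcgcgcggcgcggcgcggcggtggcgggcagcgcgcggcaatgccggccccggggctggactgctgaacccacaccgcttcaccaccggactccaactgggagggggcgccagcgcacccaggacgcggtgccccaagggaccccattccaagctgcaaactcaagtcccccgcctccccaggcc
RUNX3 distal, chr1:24965011-24965260 (-): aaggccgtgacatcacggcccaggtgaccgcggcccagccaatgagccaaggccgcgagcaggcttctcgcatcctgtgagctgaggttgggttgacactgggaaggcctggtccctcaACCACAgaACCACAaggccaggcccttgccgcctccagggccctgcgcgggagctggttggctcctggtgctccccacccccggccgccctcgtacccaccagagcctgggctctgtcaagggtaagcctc

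In the distal RUNX2 window the matches started at bases -191, -87, 17, 25 and 33, counted from the transcription start with base 1 as its first. The matches of the distal RUNX3 window started at bases -131 and -123. Both distal windows held a pair of TGTGGT matches on the opposite strand with 2 bases between them, an arrangement looked for in all windows after it was seen in these, and 4 of the 35116 windows held it (0.0114%), these included. The longest stretch shared by the distal RUNX2 and RUNX3 windows was 18 bases, and it contained this pair. Base composition separated the RUNX2 starts as well, with 41.6% G or C in the 250 bases before the distal start and 78% before the proximal start. The counts are summed over a whole gene, so reads from the distal and the proximal promoter were not separated, and a motif match is no measure of binding.

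RUNX2 (ENSG00000124813, chr6:45328157-45664349 on the plus strand, 12 exons) was lower in every parental library than in every SDS22-degron library. In untreated parental cells its level was 3.21, 4.07 and 4.37 CPM in replicates 1, 2 and 3. In Dox/IAA-treated parental cells it was 2.02, 2.84 and 2.67 CPM, and these 6 parental libraries rested on 27 to 53 reads each. In SDS22-degron cells it was 31.8, 37.2 and 38.8 CPM without and 32.6, 38.8 and 36.8 CPM with Dox/IAA, from 427 to 541 reads per library. The lines did not overlap, and the lowest SDS22-degron library was 7.28 times the highest parental library. Between the untreated lines RUNX2 was 9.22-fold higher in SDS22-degron cells, a log2 fold change of 3.21 ± 0.135 (SE) and the 26th highest of 16657 genes. Between the Dox/IAA-treated lines it was 14.3-fold higher, a log2 fold change of 3.84 ± 0.144 (SE) and the 14th highest. These are values of the comparison by which RUNX2 was selected. For background only, 28.2% of all tested genes were called between the untreated lines (2198 higher, 2500 lower) and 44.9% between the treated lines (3633 higher, 3853 lower) at an adjusted p under 0.05. The groups of 3 libraries did not overlap for 43.5% and 52.9% of genes, and nothing is read from these shares. In bulk RNA, a change in the share of cells that express RUNX2 and a change in RUNX2 RNA per cell cannot be told apart.

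**Figure D1:**
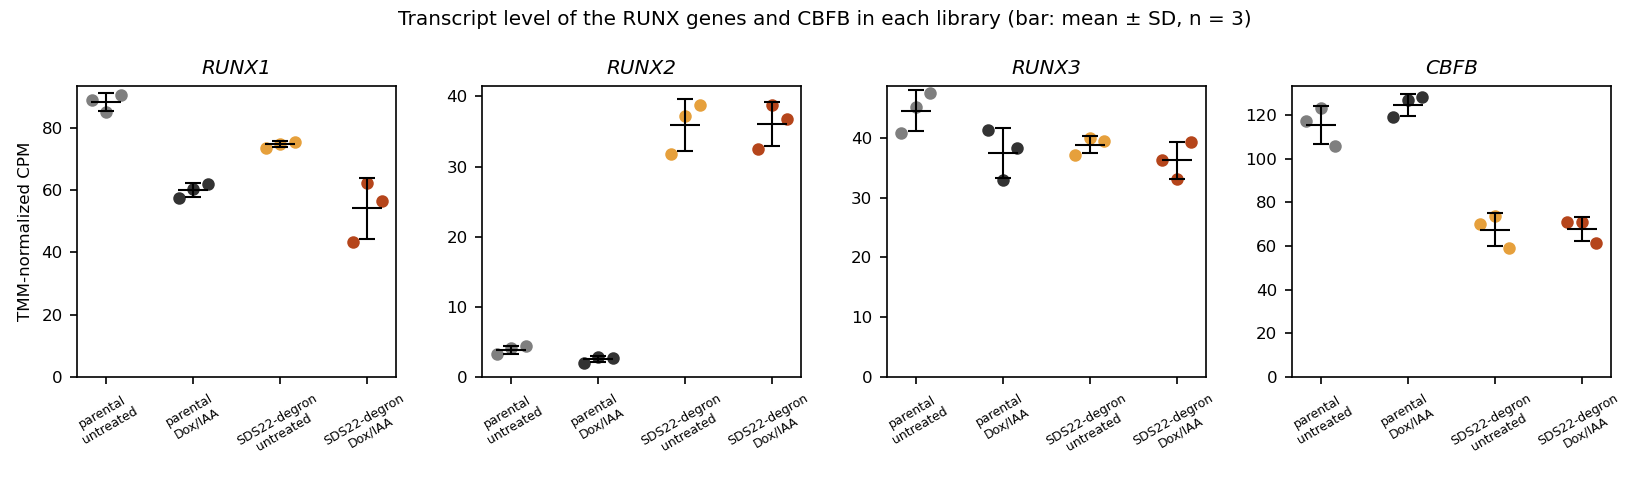
TMM-normalized CPM (vertical axes, starting at 0) of RUNX1, RUNX2, RUNX3 and CBFB in each library of the 4 groups, with bars for the mean ± SD of 3 libraries. RUNX2 is at 2.02 to 4.37 CPM in parental and 31.8 to 38.8 CPM in SDS22-degron libraries, CBFB is lower in every SDS22-degron library than in every parental one, and RUNX1 is lower with Dox/IAA in both lines.

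The response of RUNX2 to Dox/IAA was compared within each line, which is not the comparison that selected the gene, although it uses some of the same libraries. In SDS22-degron cells, where Dox/IAA removes SDS22, RUNX2 was at 35.9 ± 3.67 CPM (SD, n = 3) before and 36.1 ± 3.18 CPM after treatment. The groups overlapped, and the log2 fold change, 0.0050, had a 95% interval of -0.21 to 0.22 (edgeR quasi-likelihood test, Benjamini-Hochberg adjusted p = 0.971). In parental cells, which have no degron, RUNX2 fell from 3.88 ± 0.601 to 2.51 ± 0.433 CPM, a log2 fold change of -0.63 ± 0.196 (SE, edgeR adjusted p = 0.0203), and all 3 treated libraries were below all 3 untreated ones. In the same comparison 15.7% of all genes were called lower and 15.9% higher, and the groups did not overlap for 41.3% of genes. The treated parental libraries are also one side of the comparison that selected RUNX2. The parental call rested on single libraries, since the edgeR adjusted p was 0.06529 without untreated replicate 2, 0.0794 without untreated replicate 3 and 0.105 without treated replicate 1, with log2 fold changes of -0.59, -0.54 and -0.49.

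The interaction of line and Dox/IAA, which tests whether the response differed between the lines, had a log2 value of 0.64 for RUNX2, with a 95% confidence interval of 0.17 to 1.10. Its edgeR adjusted p was 0.0623, on the uncalled side of the 0.05 threshold, and 6.03% of all genes were called higher and 8.35% lower in this test. RUNX2 moved to the called side with replicate number as a block (log2 0.63, edgeR adjusted p = 0.0173), without untreated parental replicate 1 (log2 0.74, edgeR adjusted p = 0.04993) and without treated SDS22-degron replicate 1 (log2 0.69, edgeR adjusted p = 0.0484). The interaction is also the difference between the 2 line comparisons, so it is not separate from the values that selected RUNX2. None of the 4 genes was called in the interaction by the edgeR test, 1 of them, RUNX2, had an unadjusted p under 0.05, and edgeR's likelihood ratio test called that one. The log2 values of the others were 0.09 for RUNX1, 0.15 for RUNX3 and -0.10 for CBFB, with edgeR adjusted p of 0.706, 0.499 and 0.619.

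Genes that overlap RUNX2 were examined because the libraries were made with a stranded kit but the strand setting of the read counting is not given in the sources used here. SUPT3H, a subunit of the SAGA co-activator complex, lies on the opposite strand across the distal RUNX2 promoter and had group means of 7.70, 5.45, 8.35 and 6.82 CPM in untreated parental, treated parental, untreated SDS22-degron and treated SDS22-degron cells. Its log2 difference between the lines was 0.12 ± 0.141 (SE) untreated and 0.32 ± 0.153 treated, against 3.21 and 3.84 for RUNX2. SUPT3H also fell with Dox/IAA in parental cells, with a log2 fold change of -0.49 ± 0.151 (SE, edgeR adjusted p = 0.0183), beside -0.63 for RUNX2. Its edgeR adjusted p was 0.0767 without untreated parental replicate 1 and 0.0678 without replicate 3. Whether shared reads have a part in either value was not tested.

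RP1-244F24.1 is an antisense gene on the minus strand, and its own start lies 270 bases before the proximal RUNX2 start, so the pair point away from each other. It had 0, 0 and 1 reads in untreated and 0, 1 and 1 reads in treated parental cells. In SDS22-degron cells it had 10, 8 and 1 reads untreated and 8, 6 and 4 reads treated, which gives 37 reads in 6 libraries of that line and 3 reads in 6 parental libraries. Untreated SDS22-degron replicate 3 was at the parental level and the other SDS22-degron libraries were above all parental ones. This gene did not pass the filter on low counts and has no test.

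RUNX1 (ENSG00000159216, chr21:34787801-36004667 on the minus strand, 27 exons) fell with Dox/IAA in both lines. In untreated parental cells it was at 89.1, 85.0 and 90.5 CPM and in treated parental cells at 57.6, 60.3 and 62.0 CPM. In SDS22-degron cells it was at 73.6, 74.9 and 75.5 CPM untreated and at 43.2, 62.4 and 56.6 CPM treated. Every treated library was below every untreated library of its own line, and the treated SDS22-degron libraries were the most spread. The log2 fold change with Dox/IAA was -0.56 ± 0.0937 (SE) in parental cells, a level 68.0% of the untreated one (edgeR adjusted p = 0.000235). In SDS22-degron cells it was -0.47 ± 0.0945 (SE), or 72.4% of the untreated level (edgeR adjusted p = 0.000446). In SDS22-degron cells 25.5% of all genes were called lower and 26.0% higher with Dox/IAA, and the groups did not overlap for 59.9% of genes. The interaction for RUNX1 had a 95% confidence interval of -0.19 to 0.37, so these data allow a difference in response between the lines anywhere within that range.

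Between the lines, RUNX1 was lower in untreated SDS22-degron cells, at 84.7% of the parental level, a log2 fold change of -0.24 ± 0.0924 (SE), without overlap of the libraries. Between the treated lines the log2 fold change was -0.15 ± 0.0956 (SE) and the libraries overlapped, treated SDS22-degron replicate 2 standing above all treated parental libraries. This value rested on single libraries and was -0.0057 without treated SDS22-degron replicate 1 and -0.27 without replicate 2. EZH2P1, a processed pseudogene of EZH2, lies within RUNX1 on the same strand, so strand would not separate its reads. It had means of 6.15, 6.46, 7.56 and 3.81 CPM in untreated and treated parental and untreated and treated SDS22-degron cells, and it fell with Dox/IAA in SDS22-degron cells with a log2 fold change of -0.999 ± 0.213 (SE, edgeR adjusted p = 0.000700). Reads of EZH2 itself may be placed there, so its level is uncertain. PPP1R2P2, a pseudogene on the opposite strand of RUNX1, had 12 reads in all 12 libraries together.

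RUNX3 (ENSG00000020633, chr1:24899511-24965121 on the minus strand, 8 exons) had group means between 36.2 and 44.5 CPM, the narrowest relative range of the 4 genes. It was at 40.8, 45.1 and 47.5 CPM in untreated and at 41.2, 32.9 and 38.2 CPM in treated parental cells. It was at 37.2, 40.0 and 39.4 CPM in untreated and at 36.3, 33.1 and 39.3 CPM in treated SDS22-degron cells. The libraries with and without Dox/IAA overlapped in both lines. In parental cells RUNX3 had a log2 fold change of -0.25 ± 0.0919 (SE) with Dox/IAA and an edgeR adjusted p of 0.0481, just past the threshold. That call was lost in 5 of 10 other settings and in 8 of 12 fits that left out 1 library. The edgeR adjusted p was 0.103 and 0.164 without untreated parental replicates 2 and 3, and 0.202 and 0.0878 without treated parental replicates 2 and 3. It was 0.0588, 0.0615 and 0.0579 without untreated SDS22-degron replicates 1, 2 and 3, and 0.0533 without treated SDS22-degron replicate 1. The log2 fold change closest to 0, -0.16, was that without treated parental replicate 2. For SDS22-degron cells it was -0.10, with a 95% interval of -0.29 to 0.09 (edgeR adjusted p = 0.380). Between the untreated lines it was -0.20 ± 0.0913 (SE), with untreated parental libraries all above the SDS22-degron ones, and between the treated lines -0.05 ± 0.0929 (SE), with overlap. RP11-84D1.1, an antisense gene within RUNX3, had 24 reads in all libraries together.

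CBFB (ENSG00000067955, chr16:67029116-67101058 on the plus strand, 8 exons), the partner of all 3 RUNX proteins, was lower in SDS22-degron cells at either condition. It was at 117.1, 123.3 and 105.9 CPM in untreated and at 118.9, 126.9 and 128.1 CPM in treated parental cells. In SDS22-degron cells it was at 70.1, 73.5 and 58.8 CPM untreated and at 71.0, 71.0 and 61.4 CPM treated. The lines did not overlap, and the highest SDS22-degron library was at 69.4% of the lowest parental library. The log2 fold change between the lines was -0.77 ± 0.0856 (SE) untreated, 58.5% of the parental level, and -0.88 ± 0.0857 (SE) treated, 54.4% of the parental level. No call was made for Dox/IAA in either line. The parental log2 fold change was 0.11, with a 95% interval of -0.06 to 0.29 (edgeR adjusted p = 0.338), and that of SDS22-degron cells 0.0071 with an interval of -0.18 to 0.19 (edgeR adjusted p = 0.953). No other gene of the table with 10 or more reads overlapped CBFB.

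**Figure D2:**
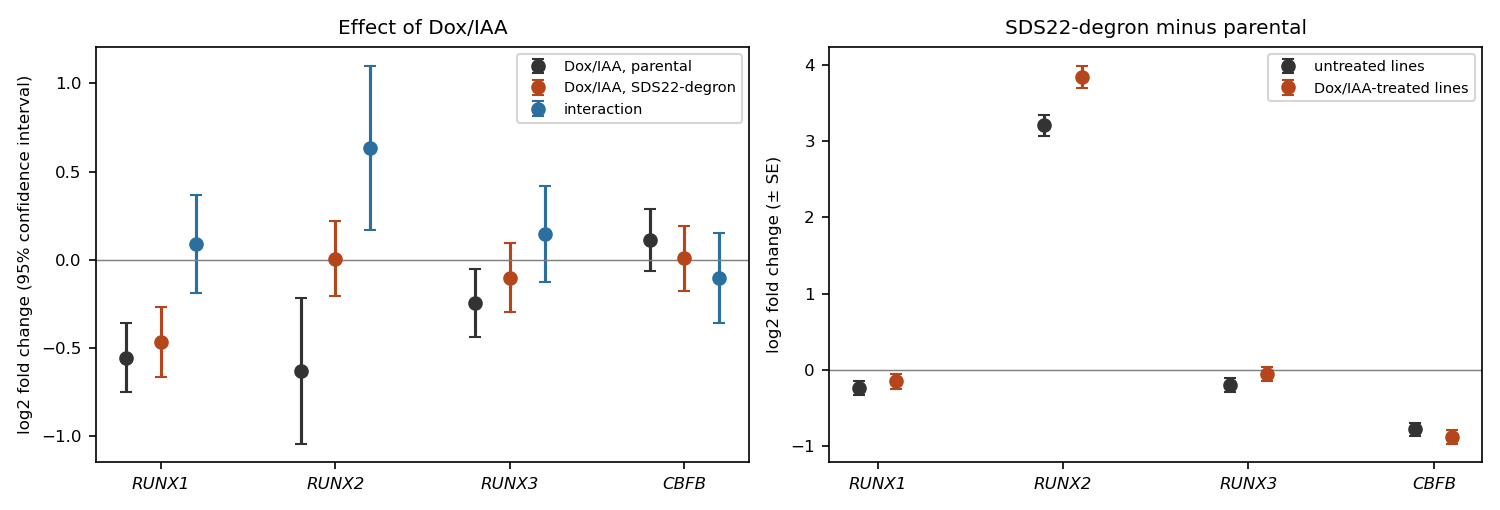
Log2 fold changes of the 4 genes with Dox/IAA in each line and the interaction (left, bars are 95% confidence intervals) and between the lines (right, bars are ± SE, no test). RUNX1 is lower with Dox/IAA in both lines (-0.56 and -0.47), RUNX2 has an interval below 0 in parental but not in SDS22-degron cells, and between the lines RUNX2 stands at 3.21 and 3.84 and CBFB at -0.77 and -0.88.

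The place of each gene on its chromosome was set beside these values. CBFB lies where most neighbours were lower in SDS22-degron cells too. Of 55 tested genes within 1 Mb of CBFB, 50 had a log2 fold change below 0 between the untreated lines, 31 were called lower and 2 higher, and the median was -0.37. Between the treated lines 28 were called lower and 3 higher, with a median of -0.36. On chromosome 16 as a whole, 582 of 725 tested genes had a log2 fold change below 0 between the untreated lines. Their median was -0.30, against a median of 0.0034 over all tested genes, and 331 were called lower and 27 higher. Over all genes 28.2% were called between the untreated lines (2198 higher, 2500 lower) and 44.9% between the treated lines (3633 higher, 3853 lower). CBFB was 0.48 below the median of its chromosome between the untreated and 0.56 below it between the treated lines on the log2 scale, and it was lower than 48 of its 55 neighbours in both. The part of this regional difference in the CBFB level was not tested.

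Neighbours of RUNX2 are given beside it as a description, since its own line difference is the value that selected it. The 9 tested genes within 1 Mb had a median log2 fold change of 0.01 between the untreated lines and 0.32 between the treated lines, and their highest values were 1.22 and 1.34. Over the 887 other tested genes of chromosome 6 the highest values were 2.25 and 3.39, and the place of RUNX2 above them follows from how it was chosen. RUNX3 was close to its surroundings, with a median of -0.14 for 27 genes within 1 Mb and -0.13 for 1658 genes of chromosome 1 between the untreated lines, beside -0.20 for RUNX3. For RUNX1 the median was 0.04 for 19 genes within 1 Mb and -0.0080 for 150 genes of chromosome 21, beside -0.24 for RUNX1.

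**Figure D3:**
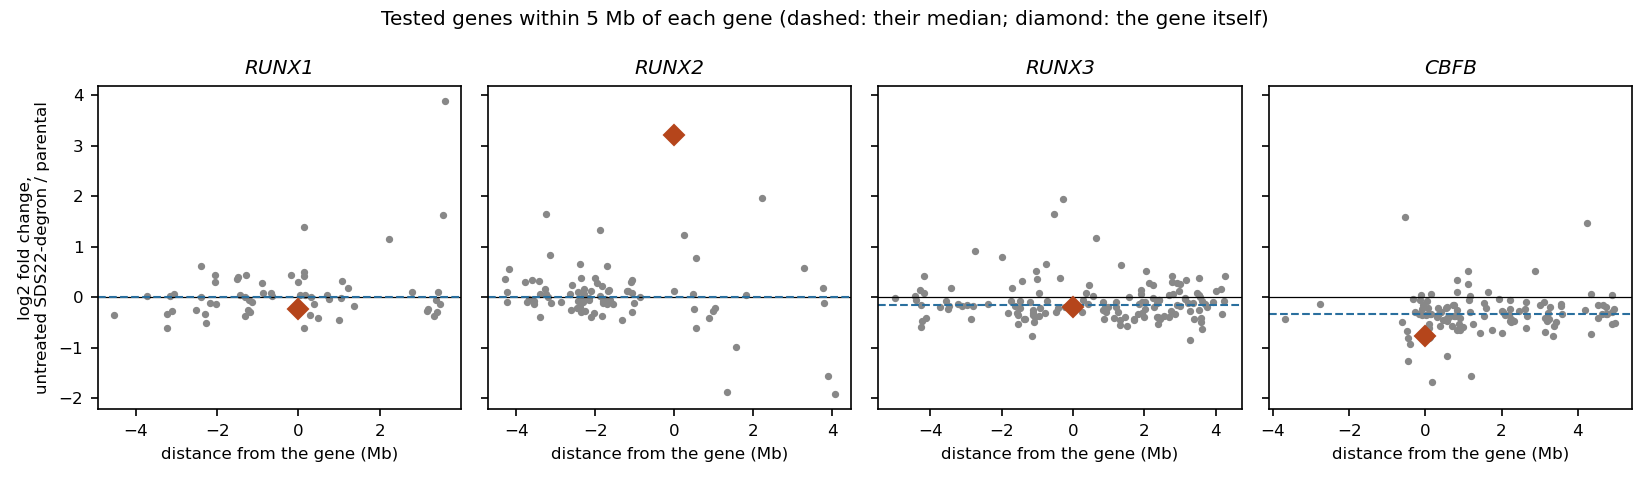
Log2 fold change between untreated SDS22-degron and parental cells (vertical axis) of the tested genes within 5 Mb of each gene, by distance in Mb (horizontal axis), with the median as a dashed line and the gene itself as a diamond. RUNX2, which was selected for this difference, is drawn at 3.21, and CBFB (-0.77) lies below the median of its own 118 neighbours, which is -0.34.

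Levels of different genes were compared as CPM per kb of exon length. The length is that of all annotated exons, 15574 bases for RUNX1, 8192 for RUNX2, 4523 for RUNX3 and 4129 for CBFB, which understates a gene that uses few of its exons. In parental cells the order in all 6 libraries was CBFB, RUNX3, RUNX1 and RUNX2, with mean levels of 28.0, 9.83, 5.66 and 0.474 CPM per kb untreated and 30.2, 8.28, 3.85 and 0.307 CPM per kb treated, and no neighbours in this order overlapped within a group. In untreated SDS22-degron cells the order was the same in all 3 libraries, but RUNX1 (4.73 to 4.85 CPM per kb) and RUNX2 (3.88 to 4.74 CPM per kb) overlapped. In treated SDS22-degron cells RUNX2 (3.98 to 4.74 CPM per kb) was above RUNX1 (2.78 to 4.01 CPM per kb) in each of the 3 libraries, although their ranges overlapped. RUNX2 in parental cells was above 9.47% of tested genes untreated and 5.19% treated on this scale, and in SDS22-degron cells above 43.2% and 42.8%. The order depends on the lengths used. In CPM not divided by length, RUNX1 was above RUNX2 in treated SDS22-degron cells, with means of 54.1 and 36.1 CPM.

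The makeup of the RUNX transcripts followed from the levels per kb, so it depends on the lengths used too. The share of RUNX2 in the summed RUNX level per kb was 2.96% ± 0.319 (SD, n = 3) in untreated and 2.49% ± 0.567 in treated parental cells, and 24.6% ± 1.45 in untreated and 27.7% ± 1.53 in treated SDS22-degron cells. RUNX3 had the highest share in every group, from 61.5% and 66.5% in untreated and treated parental cells to 48.4% and 50.5% in untreated and treated SDS22-degron cells. In CPM not divided by length, RUNX1 was instead above RUNX3 in every group. Their means were 88.2 and 44.5 CPM in untreated and 60.0 and 37.5 CPM in treated parental cells. In SDS22-degron cells they were 74.7 and 38.8 CPM untreated and 54.1 and 36.2 CPM treated. The summed RUNX level was 16.0 ± 0.865 CPM per kb in untreated and 12.4 ± 0.827 in treated parental cells, and 17.8 ± 0.816 in untreated and 15.9 ± 1.03 in treated SDS22-degron cells. The ratio of CBFB to the summed RUNX level was 1.76 ± 0.204 and 2.44 ± 0.233 in untreated and treated parental cells, where CBFB exceeded the sum in all 6 libraries. It was 0.922 ± 0.125 and 1.04 ± 0.142 in untreated and treated SDS22-degron cells, where CBFB exceeded the sum in 1 and 2 of 3 libraries. The ratio is one of transcripts per exon length and not of proteins.

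**Figure D4:**
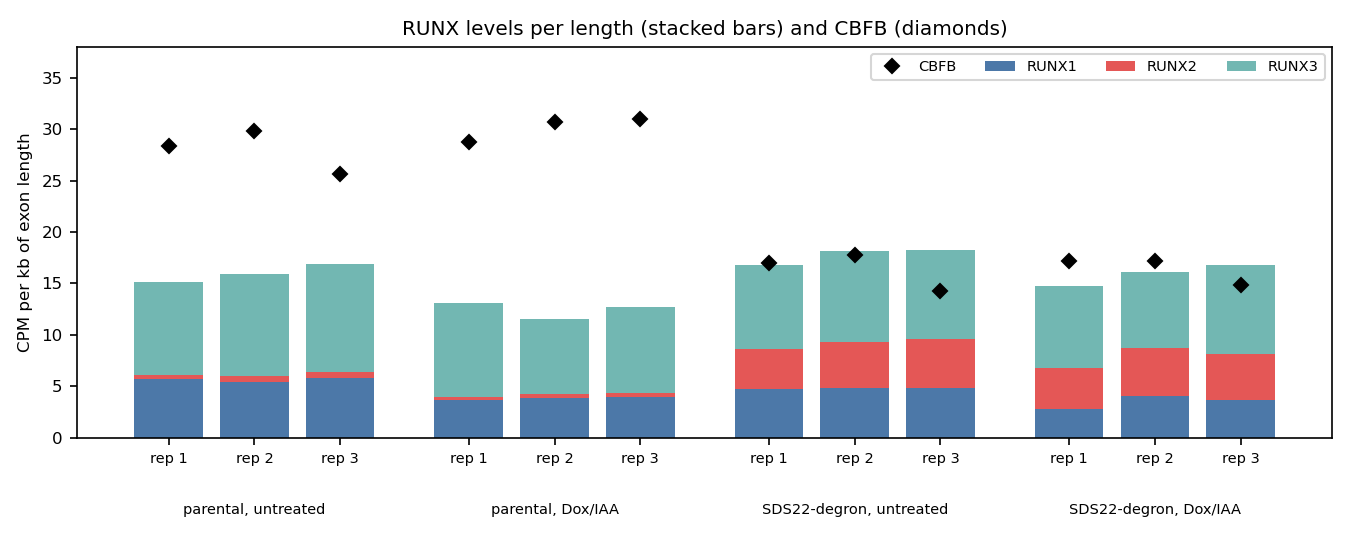
Levels of RUNX1, RUNX2 and RUNX3 per kb of exon length (stacked bars) and of CBFB (diamonds) in each of the 12 libraries, in CPM per kb. RUNX2 makes up 2.49% and 2.96% of the summed bars on average in parental and 24.6% and 27.7% in SDS22-degron cells, and the diamonds lie well above the bars only in parental cells.

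Genes whose level over the 12 libraries was most like that of each gene were listed by Pearson's r of log2 CPM. These libraries fall into separate sets by line for RUNX2 and CBFB, the genes share libraries and depth, and r serves only to pick the genes. Among the genes closest to RUNX2 were SNTB1, a syntrophin (r = 0.988), CCND1, which encodes cyclin D1 (r = 0.983), SCML1 (r = 0.983) and the adhesion molecule MCAM (r = 0.981). SNTB1 had 7.44 and 4.78 CPM in untreated and treated parental cells and 32.2 and 31.6 CPM in untreated and treated SDS22-degron cells. CCND1 had 864.8 and 812.6 CPM in parental and 1412 and 1382 CPM in SDS22-degron cells. Both were thus lower in the parental line, by different factors. Closest to RUNX1 were the RNA helicase gene DDX27 (r = 0.966), the mitochondrial RNA polymerase gene POLRMT (r = 0.948) and NUDT2 (r = 0.943). Closest to RUNX3 were PAFAH1B3 (r = 0.927), ARMC7 (r = 0.924) and ZNF398 (r = 0.902). Closest to CBFB were SUCLG2, a subunit of succinyl-CoA synthetase (r = 0.988), the kinase gene PAK2 (r = 0.981) and the zinc finger gene ZNF134 (r = 0.980). ZNF134 fits this pattern at 9.65 and 9.95 CPM in parental and 3.81 and 3.76 CPM in SDS22-degron cells.

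Genes known to work with RUNX proteins were counted next, beginning with co-repressors, the Groucho (TLE) and ETO families and the histone-modifying enzymes that RUNX proteins bring to DNA. Of 15 co-repressor genes 13 passed the filter, and with Dox/IAA in SDS22-degron cells 8 rose, 2 fell and 3 were not called, where 26.0% of all genes rose and 25.5% fell. The list median was 0.25 on the log2 scale, against 0.0046 over all tested genes. In parental cells 4 rose and 2 fell, where 15.9% of all genes rose and 15.7% fell, with a median of 0.13 against 0.0015. The class II deacetylase gene HDAC5 rose in SDS22-degron cells from 44.6 to 97.0 CPM, a log2 fold change of 1.12 ± 0.136 (SE, edgeR adjusted p = 1.97e-06), and in parental cells it was at 36.4 and 46.9 CPM (edgeR adjusted p = 0.0566). The H3K9 methyltransferase gene SUV39H1 fell from 33.4 to 15.2 CPM, by 1.13 on the log2 scale (edgeR adjusted p = 6.93e-07). The interaction was called for both, at 0.75 for HDAC5 (edgeR adjusted p = 0.0157) and -0.93 for SUV39H1 (edgeR adjusted p = 0.00153). The ETO family gene CBFA2T2 and the deacetylase gene HDAC6 also rose in SDS22-degron cells, with log2 fold changes of 0.58 and 0.50. In parental cells they rose by 0.29 (edgeR adjusted p = 0.0344) and 0.24 (edgeR adjusted p = 0.0274). Those parental calls were lost in 2 and 3 of 12 fits that left out 1 library, and the interaction was called for neither gene.

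Among the Groucho genes, TLE1 differed most between the lines, at 15.2 and 9.26 CPM in untreated and treated parental cells and at 34.7 and 29.0 CPM in untreated and treated SDS22-degron cells. Between the treated lines it was higher by a log2 value of 1.64 ± 0.106 (SE), and that of TLE2 was 0.75 ± 0.112 (SE). TLE1 fell with Dox/IAA in both lines, by 0.72 on the log2 scale in parental cells (edgeR adjusted p = 0.000131) and by 0.26 in SDS22-degron cells (edgeR adjusted p = 0.0246). The latter call was lost without untreated SDS22-degron replicates 1 and 3 and without treated SDS22-degron replicate 2, at an edgeR adjusted p of 0.0643, 0.103 and 0.0838. The interaction was called for TLE1 (log2 0.46, edgeR adjusted p = 0.0435), a call lost in 9 of 12 fits that left out 1 library. TLE4 and the ETO gene RUNX1T1 had 0 reads in every library, for which 3 reads per library, 0.206 to 0.253 CPM, are the level that a count of 0 allows. In the comparison of the lines 3 co-repressor genes were called higher and 3 lower untreated, and 6 higher and 3 lower treated, where 28.2% and 44.9% of all genes were called in either direction.

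Co-activators of RUNX proteins and DNA-binding factors that act with or against them were counted as 1 list. With Dox/IAA in SDS22-degron cells 9 of 16 tested genes rose and 1 fell, beside 26.0% of all genes that rose and 25.5% that fell. The list median was 0.30 on the log2 scale. In parental cells 4 rose and 2 fell, with a median of 0.09, beside 15.9% and 15.7% of all genes. The acetyltransferase gene KAT2B rose by a log2 fold change of 0.76 ± 0.140 (SE, edgeR adjusted p = 0.000172) in SDS22-degron and 0.71 (edgeR adjusted p = 0.000542) in parental cells. SMAD3, a transducer of TGF-beta signals, rose by 0.76 ± 0.0878 (SE, edgeR adjusted p = 1.07e-06) in SDS22-degron and 0.49 (edgeR adjusted p = 0.000352) in parental cells. The Hippo pathway co-activator gene YAP1 rose by 0.53 (edgeR adjusted p = 6.43e-06) in SDS22-degron and 0.45 (edgeR adjusted p = 0.000150) in parental cells. The homeobox gene MSX2 rose by 0.50 (edgeR adjusted p = 0.00131) in SDS22-degron cells, and its parental value was 0.09 (edgeR adjusted p = 0.637). The interaction was not called for KAT2B, SMAD3, YAP1 or MSX2. PRMT1, an arginine methyltransferase gene, was the 1 gene of this list that fell in SDS22-degron cells, at 302.7 and 214.8 CPM. It was chosen for mention after its values were seen. PRMT1 also fell in parental cells, from 299.7 to 244.7 CPM (log2 -0.29, edgeR adjusted p = 0.00107). Its interaction was not called (edgeR adjusted p = 0.116).

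MSX2 was at 12.8 and 13.7 CPM in untreated and treated parental cells and at 26.1 and 36.8 CPM in SDS22-degron cells, a log2 fold change of 1.43 ± 0.122 (SE) between the treated lines. TWIST1, whose product restrains RUNX2 in bone, was at 1.76 CPM in treated parental and 0.856 CPM in treated SDS22-degron cells, a log2 fold change of -1.02 ± 0.289 (SE). The YAP1 paralog gene WWTR1 and KAT2B were also lower between the treated lines, with log2 fold changes of -0.44 and -0.41. Of this list, 3 genes were called higher and 7 lower between the untreated lines, and 4 higher and 6 lower between the treated lines, beside 28.2% and 44.9% of all genes called in either direction. DLX5 and ZNF521 had 0 reads in every library.

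Ubiquitin ligases and kinases that act on RUNX proteins moved in both directions. All 18 passed the filter, and with Dox/IAA 8 rose and 5 fell in SDS22-degron cells (list median 0.12 on the log2 scale), while 7 rose and 3 fell in parental cells, with a median of 0.11. Over all genes 26.0% rose and 25.5% fell in SDS22-degron cells, and 15.9% rose and 15.7% fell in parental cells. The largest declines among them were in cell-cycle genes of SDS22-degron cells. CDC20, an activator of the anaphase-promoting complex, fell from 192.0 to 58.8 CPM, by 1.71 on the log2 scale (edgeR adjusted p = 4.86e-09). The mitotic kinase gene AURKB fell by 1.64 (edgeR adjusted p = 1.09e-09), CDK1 by 1.30 (edgeR adjusted p = 3.67e-08) and CDK4 by 0.85 (edgeR adjusted p = 8.69e-09). These 4 genes were also the 4 called in the interaction, all of them lower, with log2 values from -1.40 for CDC20 to -0.44 for CDK4. Over all genes 8.35% were called lower and 6.03% higher in the interaction. CDK4 (log2 -0.40, edgeR adjusted p = 0.000124), CDC20 (-0.31, edgeR adjusted p = 0.0484) and AURKB (-0.29, edgeR adjusted p = 0.0271) were called lower in parental cells too. The CDC20 and AURKB calls there were lost in 9 and 4 of 12 fits that left out 1 library. Between the untreated lines 3 genes of the list were called higher and 3 lower, against 28.2% of all genes, and between the treated lines 2 higher and 7 lower, against 44.9%, including PIM1, a kinase gene, at -0.62 ± 0.138 (SE).

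Genes regulated by RUNX2 in bone mostly did not pass the filter on low counts. Of 18 skeletal target genes 4 passed the filter and 6 had 0 reads in every library, among them IBSP, COL1A2, COL10A1 and SOST. SP7, which encodes osterix and lies downstream of RUNX2 in osteoblasts, had 4 reads in all 12 libraries together, and ALPL had 9. With Dox/IAA 1 of the 4 tested genes rose and 1 fell in each line, where 26.0% of all genes rose and 25.5% fell in SDS22-degron and 15.9% and 15.7% in parental cells. COL1A1, the gene of the main collagen chain of bone, rose with Dox/IAA by a log2 fold change of 0.94 ± 0.145 (SE, edgeR adjusted p = 2.80e-05) in SDS22-degron and 0.81 (edgeR adjusted p = 0.000749) in parental cells. SPP1, which encodes osteopontin, fell from 2.05 to 1.08 CPM in SDS22-degron cells (edgeR adjusted p = 0.0377). That call was lost with DESeq2 (adjusted p = 0.0583), without any 1 of the untreated SDS22-degron replicates 1, 2 and 3 (edgeR adjusted p = 0.0742, 0.0881 and 0.0661) and without treated SDS22-degron replicate 1, where the log2 fold change was -0.56 in place of -0.93 (edgeR adjusted p = 0.185). VEGFA, an angiogenic growth factor gene, was at 83.9 and 57.1 CPM in untreated and treated parental cells and at 76.2 and 82.3 CPM in SDS22-degron cells, with an interaction of 0.66 (edgeR adjusted p = 0.0199). Its edgeR adjusted p was 0.0557 without untreated parental replicate 1 and 0.0508 without untreated SDS22-degron replicate 2. Between the untreated lines 0 of the 4 tested genes were called higher and 0 lower, where 28.2% of all genes were called in either direction. Between the treated lines 2 were called higher and 0 lower, where 44.9% of all genes were called. Those 2 were VEGFA and COL1A1, with log2 fold changes of 0.53 and 0.47.

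Targets of RUNX1 in blood cells gave a like picture, with 4 of 14 genes past the filter. MYL9, a myosin light chain gene that is a RUNX1 target in platelets, rose with Dox/IAA from 54.5 to 79.4 CPM in SDS22-degron cells, a log2 fold change of 0.54 (edgeR adjusted p = 1.58e-05), and by 0.94 in parental cells (edgeR adjusted p = 2.98e-07). The interaction was called for MYL9 (log2 -0.40, edgeR adjusted p = 0.0226). That call was lost without untreated SDS22-degron replicate 3 (edgeR adjusted p = 0.0702). In parental cells 3 of the 4 rose, beside 15.9% of all genes. In SDS22-degron cells 1 of the 4 rose and 0 fell, beside 26.0% and 25.5% of all genes. The untreated lines differed in 2 higher and 1 lower of the 4, and the treated lines in 1 lower. Over all genes 28.2% and 44.9% were called in either direction in these comparisons. The gene lower between the treated lines was GFI1, at 8.73 CPM in treated parental and 5.91 CPM in treated SDS22-degron cells. It encodes a transcriptional repressor that acts in blood cells.

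Of 11 genes of growth control, adhesion and immune function that RUNX proteins are known to regulate, 7 passed the filter. With Dox/IAA 3 rose and 1 fell in SDS22-degron cells (list median 0.63 on the log2 scale), and 2 rose and 1 fell in parental cells, with a median of 0.10. The shares over all genes were 26.0% higher and 25.5% lower in SDS22-degron cells and 15.9% and 15.7% in parental cells. The cyclin-dependent kinase inhibitor gene CDKN1A, which is also a p53 target, was at 262.9 and 273.4 CPM in untreated and treated parental cells and at 503.8 and 824.2 CPM in untreated and treated SDS22-degron cells. It rose with Dox/IAA in SDS22-degron cells by a log2 fold change of 0.71 ± 0.0826 (SE, edgeR adjusted p = 1.18e-06), and the interaction was 0.65 (edgeR adjusted p = 0.00110). BCL2L11, which encodes the pro-apoptotic protein BIM, rose by 0.66 ± 0.0926 (SE, edgeR adjusted p = 1.05e-05) in SDS22-degron cells, with an interaction of 0.56 (edgeR adjusted p = 0.00879). The protease inhibitor gene TIMP1 rose by 0.76 (edgeR adjusted p = 1.44e-07) in SDS22-degron and 0.54 (edgeR adjusted p = 4.18e-05) in parental cells. Its interaction, 0.22, was not called (edgeR adjusted p = 0.171). In SDS22-degron cells the integrin gene ITGAE fell by 0.32 (edgeR adjusted p = 0.0197). The ITGAE call was lost without untreated SDS22-degron replicates 1 and 2 (edgeR adjusted p = 0.0694 and 0.0664) and without treated SDS22-degron replicates 1 and 3 (edgeR adjusted p = 0.0632 and 0.0539). Between the untreated lines 3 genes of the list were called higher and between the treated lines 5, where 28.2% and 44.9% of all genes were called in either direction, including CDKN1A at 1.59 ± 0.0846 (SE), BCL2L11 at 0.67, JAG1, a Notch ligand gene, at 0.36 and TIMP1 at 0.35.

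**Figure D5:**
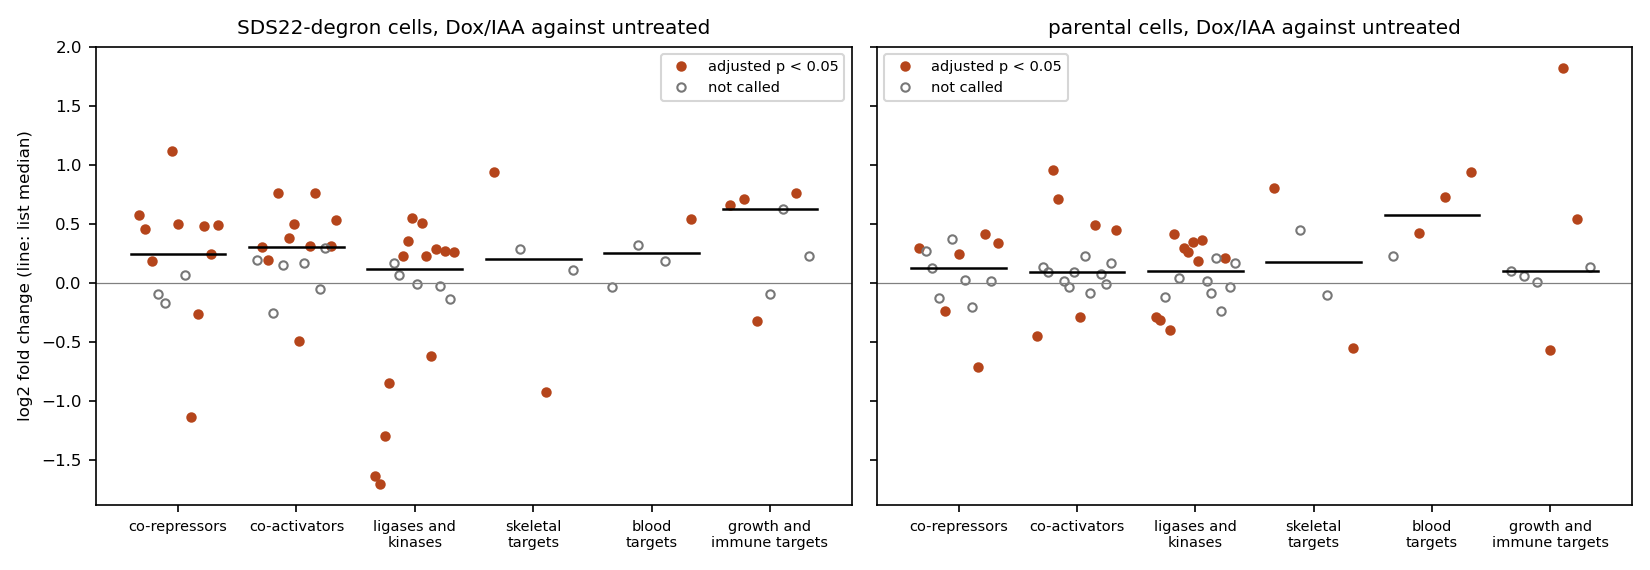
Log2 fold change with Dox/IAA (vertical axis) of the tested genes of the 6 lists in SDS22-degron (left) and parental cells (right). The list labelled co-activators also holds DNA-binding factors that act with or against RUNX proteins. Each point is a gene, filled where its edgeR adjusted p is under 0.05, and the line is the list's median, which lies between 0.12 and 0.63 in SDS22-degron cells, the lowest being that of the ligases and kinases, among which CDC20 (-1.71) and AURKB (-1.64) are the lowest points.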

How the data were processed

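The values deposited by the authors are unnormalized read counts per gene of 12 libraries, with gene position, exon length and GC percent. The submitters' processing notes list cutadapt 1.15, Bowtie2 2.3.3.1, STAR 2.5.2b, SAMtools 1.5, featureCounts 1.5.3 and GRCh38. The deposited GC content is a percent given by the authors for each gene. The strand setting of the counting is not given in the sources used here. Libraries were poly-A selected and sequenced as single reads.

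Genes were filtered with filterByExpr (minimum count 10), scaled by TMM (factors 0.971 to 1.03) and modelled by group in edgeR 4.0.16 (R 4.3.3). Tests were quasi-likelihood F tests with Benjamini-Hochberg adjustment over 16657 genes. CPM values are TMM-normalized, and log2 CPM used a prior count of 2. The alternatives were edgeR's likelihood ratio test, DESeq2 1.42.0, other scalings and filters, a replicate block, a GC correction and leaving out each library. The script was tested on simulated counts. Promoter sequences are from RefSeq (GRCh38.p14), and protein sequences were not analysed here.

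The 4 genes and all lists were chosen with earlier results of these data known. The named genes were the 4 genes, overlapping genes with at least 10 reads, the genes closest in pattern (5 for RUNX2, 3 for the others), and for each list up to 4 called genes with the largest change between the treated lines and up to 4 with Dox/IAA in SDS22-degron cells, at a mean of at least 1 CPM, with markers and PPP1R7, and 1 gene that the rule names is not reported here. Genes named for having 0 or few reads, for a called interaction or as the 1 gene of a direction were picked after their values were seen.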

Additional observations from a re-analysis of the deposited data

How the results depend on the processing

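The RUNX1 calls with Dox/IAA in both lines held under every alternative that was run, and the counts of genes called stayed within 1.5 times of the reported ones. The RUNX2 interaction passed the threshold with the likelihood ratio test (log2 0.64, edgeR adjusted p = 0.04612), with a replicate block (0.63, edgeR adjusted p = 0.0173) and with a GC correction and that block (0.62, edgeR adjusted p = 0.0178), and ranged from 0.48 to 0.75 with 1 library left out. Deviations of same-numbered libraries correlated at -0.057 to 0.246 in 18 pairs, over 0.1 in 7. Of 12 libraries 11 were closest to a library of their own number. The labels do not say whether a number marks the same experiment in every group, so the block stayed an alternative. For untreated with treated parental libraries the correlations were 0.124, 0.246 and 0.131 and for treated parental with treated SDS22-degron libraries 0.101, 0.133 and 0.138. The block changed no other call of the 4 genes, and with it the parental RUNX2 value was -0.63 (edgeR adjusted p = 0.00513). The parental RUNX3 call with Dox/IAA was lost with DESeq2 (-0.24), library size scaling (-0.19), upper quartile scaling (-0.22), no filter (-0.25) and only the groups compared (-0.24), and ranged from -0.32 to -0.16 with 1 library left out. The parental RUNX2 value ranged from -0.75 to -0.49 in the same way. Values near 0 changed sign. With Dox/IAA in SDS22-degron cells RUNX2 was at -0.00035 with only the groups compared and at -0.077 to 0.063 with 1 library left out, and CBFB at -0.083 to 0.073. The RUNX1 interaction ranged from -0.026 to 0.22 and RUNX3 between the treated lines from -0.12 to 0.020. The cause of these changes was not tested. For counts of list genes, 70 values moved to fewer and 9 to more calls. Depth limits RUNX2 in parental cells, at 27 to 53 reads per library, and the 14 skeletal and 10 blood targets that failed the filter.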

Other observations

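In the list of co-activators and DNA-binding factors, 3 genes, ETS1, CEBPB and KAT6B, were called in the interaction of line and Dox/IAA. They were picked after their values were seen. Over all genes 6.03% were called higher and 8.35% lower in this test. ETS1, an ETS family factor that binds DNA together with RUNX1, was at 5.90 and 11.5 CPM in untreated and treated parental cells and at 15.4 and 12.9 CPM in untreated and treated SDS22-degron cells. It rose with Dox/IAA in parental cells by a log2 fold change of 0.96 (edgeR adjusted p = 0.000189), the value in SDS22-degron cells was -0.26 (edgeR adjusted p = 0.123), and the interaction was -1.22 (edgeR adjusted p = 0.000740). CEBPB, a leucine zipper factor, was at 113.5 and 83.1 CPM in parental and at 86.4 and 99.1 CPM in SDS22-degron cells, with an interaction of 0.65 (edgeR adjusted p = 0.0320). That call was lost without untreated parental replicate 1 (log2 0.43, edgeR adjusted p = 0.0933), treated parental replicate 2 (0.0599), untreated SDS22-degron replicates 1, 2 and 3 (0.0739, 0.0652 and 0.0539) and treated SDS22-degron replicates 1 and 3 (0.0530 and 0.0651). KAT6B, an acetyltransferase gene, was at 61.0 and 59.4 CPM in parental and at 54.5 and 71.1 CPM in SDS22-degron cells, with an interaction of 0.42 (edgeR adjusted p = 0.0468). It lost the call in 10 of 12 fits that left out 1 library, all but those without untreated parental replicate 2 or treated parental replicate 1, at an edgeR adjusted p of 0.0532 to 0.144. SNAI2, a repressor of epithelial genes that RUNX2 is known to regulate, was at 0.186 and 0.699 CPM in untreated and treated parental cells and at 0.841 and 1.31 CPM in SDS22-degron cells, from 119 reads in all.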
